A study of Mus musculus with 7 samples.

Results

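The clustered protocadherin genes are 58 of the 24354 genes in the deposited expression table, chosen by name alone: every gene called Pcdha, Pcdhac, Pcdhb, Pcdhga, Pcdhgb or Pcdhgc followed by a number. They are described here over all 7 mouse RNA libraries of a study of fibroblasts turned into neural stem cells. Clustered protocadherins are cadherin-type adhesion molecules of the cell surface. In the alpha and gamma clusters each isoform has its own promoter and its own large variable exon, which is spliced to constant exons at the end of the cluster, and in the beta cluster each gene is a single exon with no constant part. Neurons are known to switch on different small sets of these promoters cell by cell, so that neurites of the same cell recognise and avoid each other, whereas the C-type isoforms at the ends of the alpha and gamma clusters are used more uniformly. CTCF and cohesin loop the promoters to distant enhancers, and DNA methylation keeps the unused promoters silent.

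Of the 58 genes, 14 formed the alpha cluster (12 alternate isoforms and the C-type isoforms Pcdhac1 and Pcdhac2), 22 the beta cluster and 22 the gamma cluster (12 gamma A, 7 gamma B and 3 C-type isoforms). On mouse chromosome 18 (mm10), the alpha genes span 36930285 to 37188897, the beta genes 37264998 to 37521419 and the gamma genes 37661775 to 37841873. The constant exons make up a median of 53.5% of an alpha transcript and 44.9% of a gamma transcript. Reads from these bases fit every isoform of the cluster, so alpha and gamma values depend on how the authors' software split them, and each single alpha or gamma value is uncertain. Beta transcripts share no bases with each other except Pcdhb21 and Pcdhb22, which overlap over up to 9.67% of their length.

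Induced neural stem cells (iNSCs) gave 5 libraries. The pOKSM and pBKSM lines and the mcBKSM clones numbered 1 and 3 started from fibroblasts of the strain C57BL/6-Pou5f1 x 129X1/SvJ with the genotype Oct4-CreER x Rosa26-loxSTOPlox-EYFP, in which Cre driven from Oct4 switches on a yellow fluorescent protein. The letters p and mc are read as polycistronic and monocistronic vectors, and the other letters as Oct4 (O), Brn4 (B, gene Pou3f4), Klf4 (K), Sox2 (S) and Myc (M). The fifth iNSC library, DTA, carried Oct4-CreER x Rosa26-loxSTOPlox-DTA, in which Cre switches on diphtheria toxin in place of the fluorescent protein, and its strain is given as unknown. Control neural stem cells (cNSCs) came from the brain cortex of OG2/ROSA26 mice, and mouse embryonic fibroblasts (MEFs) had the strain and genotype of the EYFP lines. Embryos were taken at day 13.5, MEFs were prepared without head, spinal cord and inner organs, and cell lines were established with lentiviral or retroviral factors and kept in neural stem cell medium. RNA of 2 to 3 biological replicates was pooled for each library, so no spread within a line can be given, and the 2 mcBKSM clones were the only group with more than 1 library.

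Estimated depth was 11.6 to 17.2 (in units of 1e6 fragments) a library. At that depth 3 fragments on a transcript of alpha or gamma size (5 kb) correspond to 0.0362 to 0.0534 FPKM (fragments per kilobase of transcript and library size), and on one of beta size (3 kb) to 0.0619 to 0.0913 FPKM. Of 6 neural stem cell markers, 5 were listed at 0 in MEF and none in the iNSC or cNSC libraries. The 6 fibroblast markers summed to at most 1.92 FPKM in an iNSC library and 0.305 FPKM in cNSC. In these bulk libraries, fewer cells with a transcript and less RNA per cell cannot be told apart. An isoform is called on below when it reached 1 FPKM, a working level that is not a sharp class: Pcdhb12 peaked just under it at 0.983 FPKM, and Pcdhga3 lay just over it at 1.01 FPKM in DTA.

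By this measure 39 of the 58 isoforms were on in at least 1 library, 7 in all 7 libraries, 9 in exactly 1 and 19 in none. The isoforms on in every library were Pcdhb14, Pcdhb16, Pcdhb17, Pcdhb20, Pcdhb22, Pcdhga6 and Pcdhgc3. The number on was 17 in pOKSM, 19 in pBKSM, 12 in mcBKSM clone 1, 9 in clone 3, 29 in DTA, 32 in cNSC and 16 in MEF. The DTA and cNSC libraries thus had the broadest sets and clone 3 the narrowest. The order of close counts depends on the level chosen: at 0.5 FPKM, 31 isoforms were on in pOKSM, 26 in pBKSM, 21 in clone 1 and 21 in MEF, and at 2 FPKM, 9 in pOKSM and 13 in MEF, and 23 in DTA and 21 in cNSC. The isoforms on in a single library were Pcdha4 and Pcdhga11 in pOKSM, Pcdhga2 in pBKSM, Pcdhb3 in DTA, Pcdhgb1, Pcdhga4, Pcdhgb4 and Pcdhgb5 in cNSC, and Pcdhga12 in MEF.

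**Figure D1:**
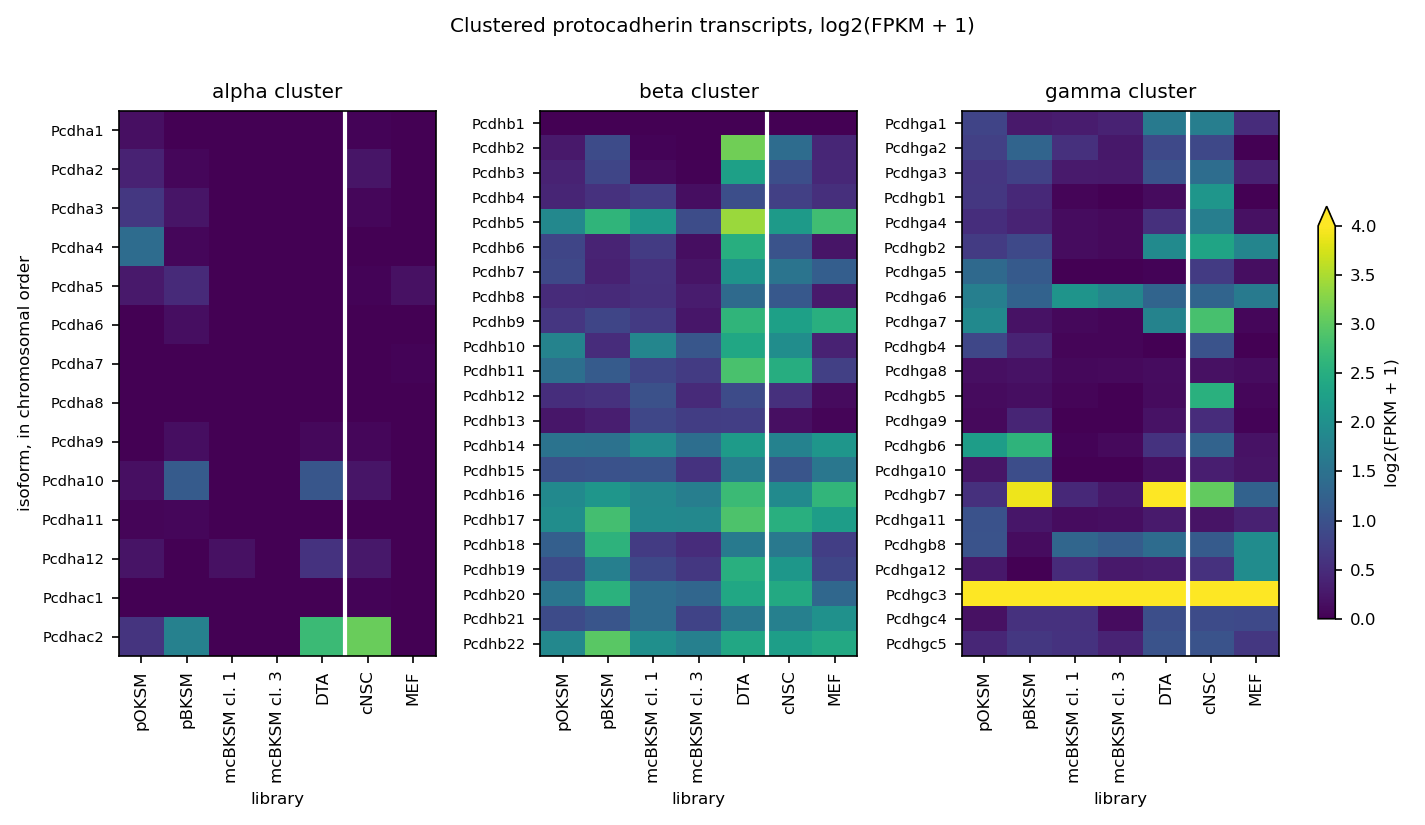
Level of each clustered protocadherin isoform (vertical axis, in chromosomal order within the alpha, beta and gamma clusters) in each of the 7 libraries (horizontal axis, iNSC libraries left of the white line), coloured by log2(FPKM + 1) on a scale that saturates at 4. Pcdhgc3 is bright in every library, the alpha cluster is dark in both mcBKSM clones and MEF, and DTA and cNSC have the most isoforms on (29 and 32 of 58).

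The 3 clusters differed in how far they followed the cell type. Alpha transcripts summed to 3.68 FPKM in pOKSM, 4.54 in pBKSM, 0.132 in mcBKSM clone 1, 0 in clone 3, 7.25 in DTA, 8.19 in cNSC and 0.158 in MEF. The alpha cluster was therefore near the floor in both mcBKSM clones as in MEF, although the clones carried neural stem cell markers. Beta transcripts summed to 27.0 FPKM in pOKSM, 43.7 in pBKSM, 28.5 in clone 1, 17.2 in clone 3, 83.8 in DTA, 49.8 in cNSC and 39.1 in MEF. Beta expression was thus present in fibroblasts, and the iNSC libraries (40.0 ± 26.2 FPKM, SD, n = 5) lay on both sides of cNSC and MEF. Gamma transcripts summed to 148 FPKM in pOKSM, 323 in pBKSM, 128 in clone 1, 87.7 in clone 3, 363 in DTA, 391 in cNSC and 115 in MEF. The gamma sum was highest in cNSC, DTA and pBKSM, and the other 3 iNSC libraries were closer to MEF than to cNSC.

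**Figure D2:**
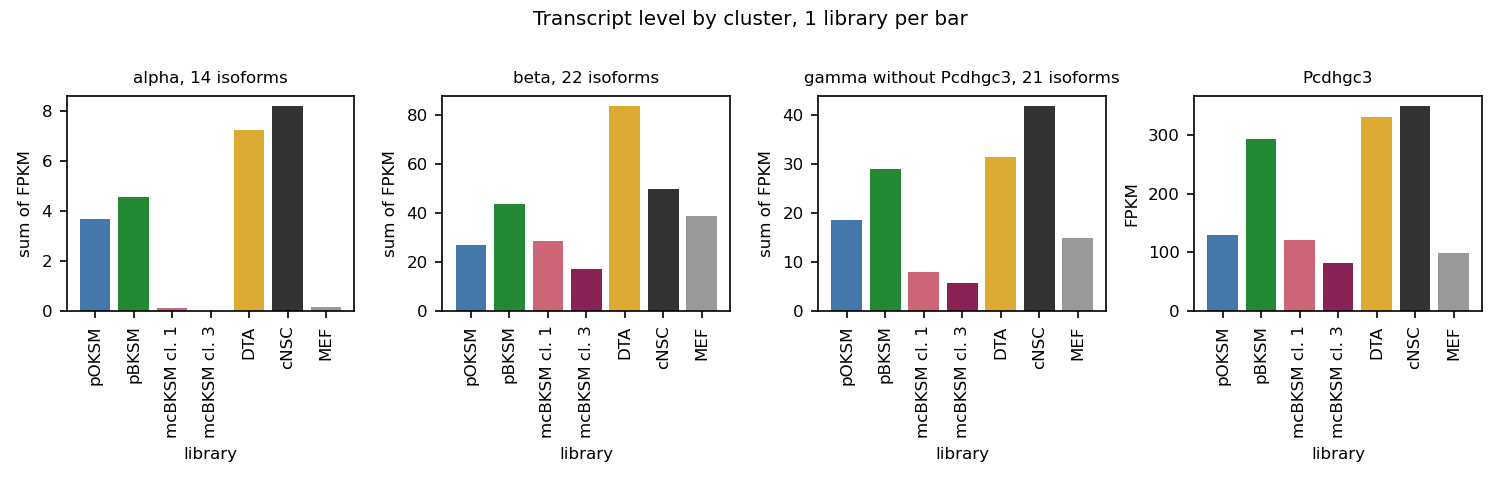
Summed FPKM (vertical axes, each with its own scale) of the alpha, beta and gamma isoforms, with Pcdhgc3 drawn apart, in each of the 7 libraries (horizontal axes, 1 library per bar and no error bars, since each line is 1 pooled library). The alpha bars are 0.132 FPKM in mcBKSM clone 1 and 0 in clone 3, and the tallest beta bar is DTA at 83.8 FPKM.

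In the alpha cluster, alternate isoforms were on in only a few libraries. Alternate alpha isoforms are known to need a partner isoform, such as a beta or gamma one, to reach the cell surface. Pcdha4 (36952689 to 37187657) was 1.66 FPKM in pOKSM and 0.0524 in pBKSM, and it was under 0.001 FPKM or listed at 0 in the other 5 libraries. Pcdha10 (37005320 to 37187657) was 0.120 FPKM in pOKSM, 1.22 in pBKSM, 1.09 in DTA and 0.174 in cNSC, and it was likewise under 0.001 FPKM or listed at 0 in both clones and MEF. So pOKSM on one side and pBKSM and DTA on the other each had a single alternate alpha isoform on, and not the same one, while cNSC had none. Values under 0.001 FPKM lie far below what 1 fragment could give and are residues of the splitting of shared reads.

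Pcdhac2 (37143678 to 37187663), the C-type alpha isoform known for its role in the axon tiling of serotonergic neurons, held most of the alpha sum in pBKSM, DTA and cNSC. It was 0.513 FPKM in pOKSM, 2.38 in pBKSM, 5.59 in DTA and 7.48 in cNSC, under 0.001 FPKM in mcBKSM clone 1 and MEF, and listed at 0 in clone 3. Pcdhac2 was thus high in cNSC and DTA, intermediate in pBKSM and off in the clones. Of the alpha isoforms, the clones had only Pcdha12 in clone 1 above 0.001 FPKM, at 0.132 FPKM, and all 14 were listed at 0 in clone 3. Pcdha5 was the highest in MEF at 0.131 FPKM. The 11 alpha isoforms that were on nowhere peaked at 0.563 FPKM (Pcdha3 in pOKSM).

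The beta cluster gives the cleanest view of isoform choice, since its genes do not share exons. The deposited values of 1 to 100 fragments of 21 beta genes were whole numbers of fragments in 88 of 88 cases at the estimated depths, so counting intervals can be given for them. Pcdhb6 was left out of this count because its annotated length did not give whole fragments. Per library, 9 beta isoforms were on in pOKSM, 11 in pBKSM, 9 in mcBKSM clone 1, 6 in clone 3, 18 in DTA, 17 in cNSC and 10 in MEF. Pcdhb1, at the alpha end of the cluster, was listed at 0 in all 7 libraries, where 3 fragments would have given 0.0619 to 0.0913 FPKM on 3 kb. Pcdhb4, Pcdhb12 and Pcdhb13 stayed between 0.0347 and 0.983 FPKM, so none of them was on.

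The 5 beta isoforms on in every library all lay at Pcdhb14 or further towards the gamma end of the cluster. Pcdhb16 (37477768 to 37483038) was 2.71 FPKM in pOKSM, 3.29 in pBKSM, 2.65 in clone 1, 2.29 in clone 3, 5.60 in DTA, 2.77 in cNSC and 5.18 in MEF. Pcdhb17 was 2.90 FPKM in pOKSM, 5.97 in pBKSM, 2.75 in clone 1, 2.64 in clone 3, 6.40 in DTA, 4.74 in cNSC and 3.67 in MEF. Neither was below 2.29 FPKM in any library, fibroblasts included. Pcdhb14 (1.72 to 3.59 FPKM), Pcdhb20 (1.51 to 4.88 FPKM) and Pcdhb22 (2.34 to 6.89 FPKM) were the others on in all 7 libraries.

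Other beta isoforms were on in some libraries and not in others. Pcdhb2 (37294840 to 37297614) was 0.214 FPKM in pOKSM, 0.892 in pBKSM, 0.0257 in clone 1, 0 in clone 3, 7.73 in DTA, 1.66 in cNSC and 0.352 in MEF. This is 345 fragments in DTA against 71 in cNSC, 27 in pBKSM, 15 in MEF and 7, 1 and 0 in pOKSM and clones 1 and 3. Pcdhb9 (37400855 to 37403909) was 0.551 FPKM in pOKSM, 0.776 in pBKSM, 0.604 in clone 1, 0.179 in clone 3, 5.12 in DTA, 3.85 in cNSC and 4.77 in MEF. Pcdhb9 was therefore on in MEF, cNSC and DTA and below 1 FPKM in the other 4 iNSC libraries. Pcdhb10 (37411674 to 37414514) went another way: it was 2.44 FPKM in pOKSM, 0.419 in pBKSM, 2.59 in clone 1, 1.11 in clone 3, 4.24 in DTA, 2.90 in cNSC and 0.298 in MEF. It was thus on in each neural library but pBKSM, which lay near MEF. Pcdhb18 (37489465 to 37494503) was 1.32 FPKM in pOKSM, 4.98 in pBKSM, 0.619 in clone 1, 0.424 in clone 3, 2.13 in DTA, 2.08 in cNSC and 0.665 in MEF, with pBKSM the highest library.

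Other beta isoforms were highest in DTA and cNSC. Pcdhb11 was 1.75 FPKM in pOKSM, 1.22 in pBKSM, 0.778 in clone 1, 0.621 in clone 3, 6.20 in DTA, 4.64 in cNSC and 0.692 in MEF. Pcdhb19 was 0.874 FPKM in pOKSM, 2.31 in pBKSM, 0.826 in clone 1, 0.568 in clone 3, 4.76 in DTA, 3.34 in cNSC and 0.780 in MEF. Both were on in pBKSM, DTA and cNSC and off in the clones and MEF. Pcdhb7 was on in DTA (3.15 FPKM), cNSC (1.92 FPKM) and MEF (1.30 FPKM), and Pcdhb8 in DTA (1.61 FPKM) and cNSC (1.15 FPKM), with the other 4 iNSC libraries at 0.155 to 0.834 FPKM for Pcdhb7 and 0.238 to 0.464 FPKM for Pcdhb8.

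A division of the beta cluster by position, made with these values known, put the contrast in numbers. The isoforms at positions 1 to 11 from the alpha end held 56.1% of beta FPKM in DTA, 44.9% in cNSC, 38.0% in pOKSM, 36.9% in MEF, 33.9% in clone 1, 24.5% in pBKSM and 19.9% in clone 3. Their sum was 47.0 FPKM in DTA and 10.3, 10.7, 9.67 and 3.43 FPKM in pOKSM, pBKSM, clone 1 and clone 3, against 22.3 in cNSC and 14.4 in MEF. At positions 12 to 22 the sum was 36.8 FPKM in DTA and 16.7, 33.0, 18.9 and 13.8 FPKM in the same 4 iNSC libraries, against 27.4 in cNSC and 24.6 in MEF. DTA and pBKSM were thus close at positions 12 to 22 and far apart at positions 1 to 11.

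**Figure D3:**
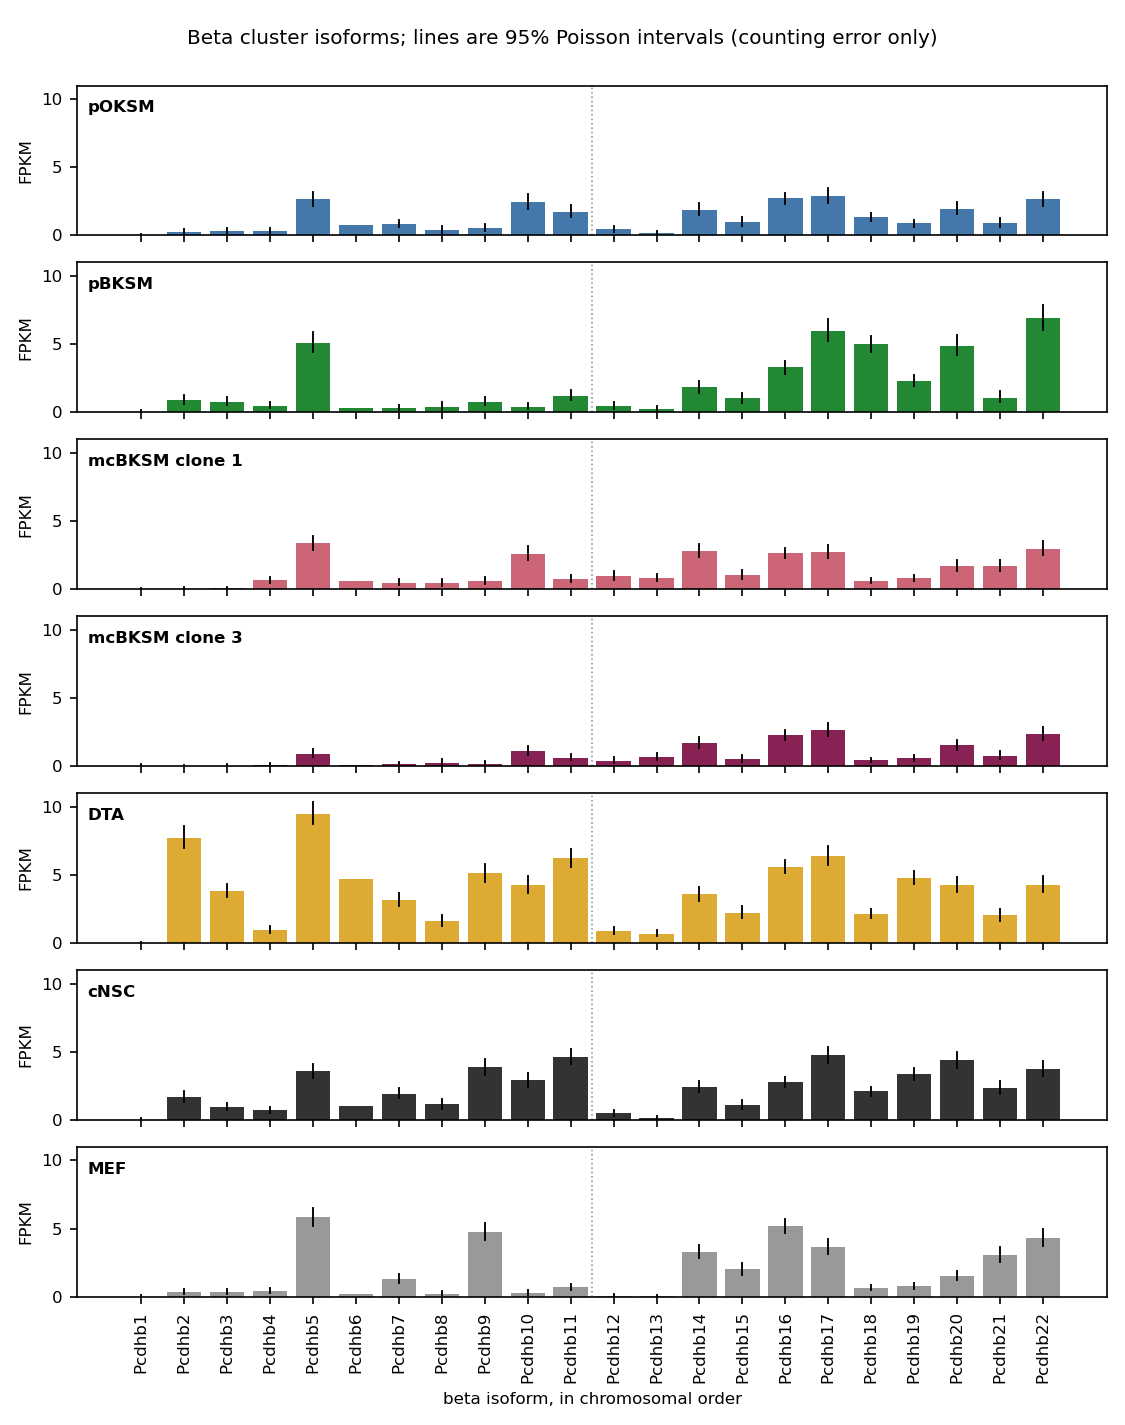
FPKM (vertical axis) of the 22 beta isoforms in chromosomal order from the alpha end (horizontal axis), 1 panel for each of the 7 libraries; black lines are exact 95% Poisson intervals from whole fragments, which cover counting error only and are not drawn for Pcdhb6, and the dotted line parts positions 1 to 11 from 12 to 22. DTA has tall bars at both ends (7.73 FPKM for Pcdhb2), whereas pBKSM is high mainly at positions 12 to 22 and clone 3 is low throughout.

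In the gamma cluster a single isoform dominated. Pcdhgc3 (37806410 to 37841873), a C-type isoform known to act in dendrite branching of cortical neurons, was 130 FPKM in pOKSM, 294 in pBKSM, 120 in clone 1, 81.9 in clone 3, 332 in DTA, 349 in cNSC and 99.7 in MEF. It held 87.0% to 93.8% of the gamma sum in each library and lay at the 95.8 to 99.4 percentile of all genes. Its 4687 annotated bases include the constant exons (45.2%), and whether part of its value comes from other gamma isoforms cannot be told from these files. The other C-type isoforms stayed low: Pcdhgc4, which mouse interneurons need to survive, was 0.0917 to 0.948 FPKM, and Pcdhgc5, known to bind GABA-A receptors, was 0.317 to 1.03 FPKM.

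The remaining gamma isoforms showed different selections in each line. Without Pcdhgc3 they summed to 18.4 FPKM in pOKSM, 28.8 in pBKSM, 7.94 in clone 1, 5.80 in clone 3, 31.4 in DTA, 41.7 in cNSC and 14.9 in MEF. Pcdhgb7 (37751619 to 37841870) was 0.474 FPKM in pOKSM, 13.9 in pBKSM, 0.375 in clone 1, 0.192 in clone 3, 15.1 in DTA, 7.26 in cNSC and 1.39 in MEF. It alone made up 50.2% of the gamma A and B transcripts in pBKSM and 51.5% in DTA, against 18.2% in cNSC. Pcdhgb6 (37742094 to 37841873) was 3.70 FPKM in pOKSM, 5.10 in pBKSM, 0.0316 in clone 1, 0.0712 in clone 3, 0.493 in DTA, 1.41 in cNSC and 0.148 in MEF. It was the leading gamma A or B isoform in pOKSM (20.6%), so pOKSM and pBKSM shared Pcdhgb6, and pBKSM and DTA shared Pcdhgb7.

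Gamma A isoforms parted the lines in other ways. Pcdhga7 (37714834 to 37841873) was 2.74 FPKM in pOKSM, 0.145 in pBKSM, 0.0640 in clone 1, 0.0360 in clone 3, 2.47 in DTA, 6.12 in cNSC and 0.0498 in MEF. Pcdhga5 was 1.59 FPKM in pOKSM and 1.19 in pBKSM, against 0.626 in cNSC, 0.105 in MEF and at most 0.0262 in the other 3 iNSC libraries. In both mcBKSM clones the gamma A and B isoforms on were Pcdhga6 and Pcdhgb8 and no others. Pcdhga6 (37707101 to 37841870) was 2.32 FPKM in pOKSM, 1.40 in pBKSM, 3.19 in clone 1, 2.56 in clone 3, 1.44 in DTA, 1.45 in cNSC and 2.12 in MEF. It was the leading gamma A or B isoform of the clones, with 45.9% of these transcripts in clone 1 and 47.5% in clone 3. Pcdhgb8, which the GENCODE annotation lists as a polymorphic pseudogene, was 1.03 FPKM in pOKSM, 0.0989 in pBKSM, 1.50 in clone 1, 1.25 in clone 3, 1.67 in DTA, 1.21 in cNSC and 2.84 in MEF.

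The cNSC library had the most complete gamma set, with 14 of 22 isoforms on and all 7 gamma B isoforms among them. Pcdhgb5 (37730971 to 37841870) was 0.0867 FPKM in pOKSM, 0.105 in pBKSM, 0.0342 in clone 1, under 0.001 in clone 3 and 0.0794 in DTA, against 4.82 in cNSC and 0.0527 in MEF. Pcdhgb1 was 0.571 FPKM in pOKSM, 0.372 in pBKSM, 0.0347 in clone 1, under 0.001 in clone 3 and 0.0802 in DTA, against 3.31 in cNSC and under 0.001 in MEF. Both were thus on in the cortical cells and in no iNSC library. Pcdhga1 was on in DTA (2.13 FPKM) and cNSC (2.28 FPKM), and Pcdhgb2 in DTA (2.75 FPKM), cNSC (4.04 FPKM) and MEF (2.52 FPKM). Pcdhga8, Pcdhga9 and Pcdhga10 were on in no library and peaked at 0.139, 0.420 and 0.935 FPKM. The MEF library stood apart at Pcdhga12 (37765580 to 37841873), which was 2.85 FPKM there, against 0.477 FPKM in cNSC and at most 0.400 FPKM in an iNSC library.

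**Figure D4:**
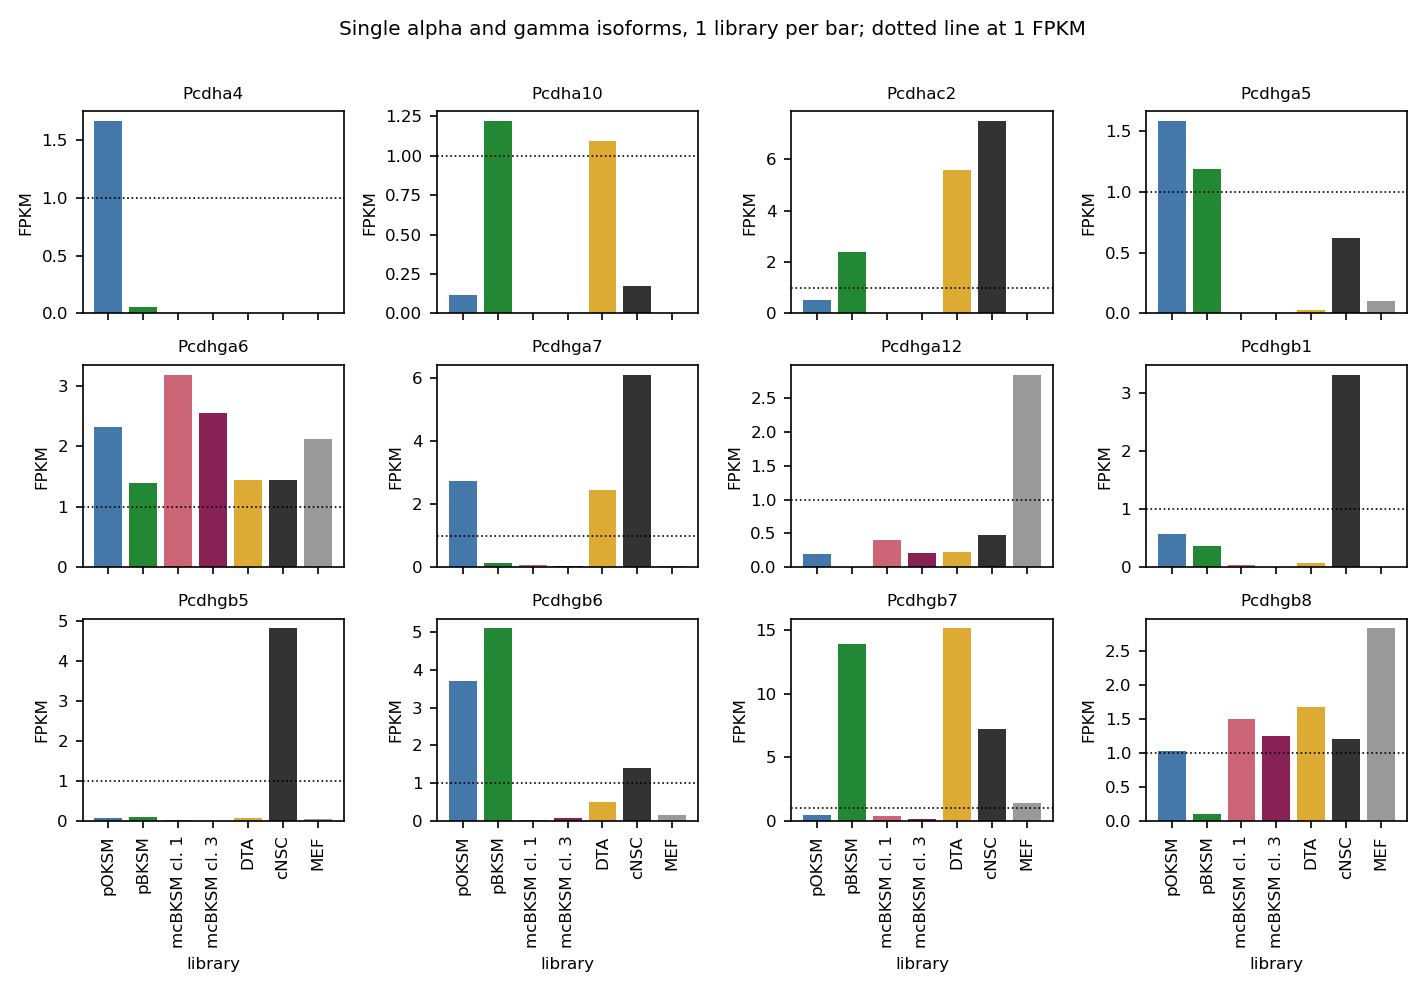
FPKM (vertical axes, each with its own scale) of 12 single alpha and gamma isoforms in each of the 7 libraries (horizontal axes, 1 library per bar and no error bars), with the level of 1 FPKM dotted. Pcdhgb7 is tall in pBKSM (13.9 FPKM), DTA (15.1 FPKM) and cNSC (7.26 FPKM), Pcdhgb6 in pOKSM and pBKSM, Pcdhgb5 and Pcdhgb1 in cNSC, and Pcdhga12 in MEF.

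The comparison of the mcBKSM clones asks how alike the isoform choice is in separate clones of the same label. The isoforms on in clone 3 were all on in clone 1 as well (9 shared, 100% of clone 3 and 75.0% of clone 1). All 9 were also on in pOKSM, DTA and cNSC, with 8 of them (88.9%) on in MEF and 7 (77.8%) in pBKSM. This overlap is thus not particular to the clones. The same overlap over all genes was not computed, so these shares have no background. Over the 22 beta isoforms the levels ranked alike (Spearman rho 0.912, a description over isoforms of these libraries). Clone 1 differed in level at some of the 12 isoforms at 1 FPKM or more in either clone. There, 4 were 2-fold or more higher in clone 1 (Pcdhb5, Pcdhb10, Pcdhb15 and Pcdhb21) and 0 were lower. Over all genes 4.06% were 2-fold apart (2.60% higher and 1.46% lower). Pcdhb5, Pcdhb15 and Pcdhb21 reached 1 FPKM only in clone 1 of the pair, so they entered through clone 1 and could not be lower there. Pcdhb5 (37320381 to 37323913) was 3.39 FPKM in clone 1 (95% Poisson interval 2.90 to 3.94, 170 fragments), against 0.900 FPKM in clone 3 (0.645 to 1.22, 41 fragments). Pcdhb10 was 2.59 FPKM in clone 1 (2.11 to 3.14), against 1.11 FPKM in clone 3 (0.789 to 1.50). These intervals did not overlap, but they cover counting error only and compare 2 libraries, not conditions. By any amount, clone 1 was above clone 3 at 9 of the 9 beta isoforms at 1 FPKM or more in either clone, where 49.7% of all genes at that level were. Pcdhb5, Pcdhb15 and Pcdhb21 again entered this count through clone 1. Below 1 FPKM, clone 1 was also above clone 3 at each other beta isoform except Pcdhb1, which was listed at 0 in both.

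The on sets of lines with different labels overlapped to varying degrees. The same overlap over all genes was not computed, so these shares have no background. A library had 10907 to 11429 genes at 1 FPKM or more, and DTA and cNSC together had 11896, so most such genes were shared there. The pBKSM and pOKSM libraries shared 12 isoforms, which is 63.2% of the pBKSM set and 70.6% of the pOKSM set. They were 2-fold or more apart at 15 of 24 isoforms, 10 of them higher and 5 lower in pBKSM. Over all genes 18.6% were that far apart (9.34% higher and 9.25% lower). The 5 lower isoforms reached 1 FPKM only in pOKSM of the pair, so they entered through pOKSM and their direction was fixed. Among the 10 higher, Pcdha10, Pcdhac2, Pcdhb19, Pcdhga2 and Pcdhgb7 entered through pBKSM in the same way. The pOKSM library was 2-fold or more apart from clone 1 at 7 of 19 isoforms, all 7 higher in pOKSM. Over all genes 7.05% were that far apart (4.07% higher and 2.98% lower). Each of the 7 reached 1 FPKM only in pOKSM of the pair, so it entered through pOKSM and could not be lower there. The 12 isoforms on in clone 1 were all on in DTA and in cNSC, and 11 of them (91.7%, or 68.8% of the MEF set) in MEF. The DTA and cNSC libraries shared 27 isoforms, which is 93.1% of the DTA set and 84.4% of the cNSC set. They were 2-fold or more apart at 14 of 34 isoforms (8 higher and 6 lower in DTA). Over all genes 16.6% were that far apart (8.15% higher and 8.47% lower). Of the pair, Pcdha10 and Pcdhb3 reached 1 FPKM only in DTA, so their direction was fixed. Likewise, Pcdhgb1, Pcdhga4, Pcdhgb4, Pcdhgb5 and Pcdhgb6 reached it only in cNSC. None of these pairs has a replicate check.

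Clone 3 lay at the low end of the iNSC libraries. It was below the other 4 at 27 of 34 isoforms and above them at none, where 19.2% of all genes lay below and 19.0% above. Clone 3 itself had only 9 isoforms on, so most of the 34 entered this count through another iNSC library. At those isoforms clone 3 could not lie above the other 4. Of the 27, 17 were among 18 beta isoforms, 7 among 13 gamma isoforms and 3 among 3 alpha isoforms. At these 3 alpha isoforms clone 3 was listed at 0 and clone 1 lay under 0.001 FPKM, a residue of the splitting of shared reads. The clones therefore cannot be ranked there, and the count of 27 is too high by these items. Of the 17 beta isoforms, Pcdhb6 had no Poisson interval. At each other one except Pcdhb5, the interval of clone 3 overlapped that of the next lowest iNSC library. At Pcdhb17 clone 3 spanned 2.17 to 3.18 FPKM, against 2.29 to 3.27 in clone 1. At Pcdhb5 it spanned 0.645 to 1.22 FPKM, against 2.18 to 3.18 in pOKSM. Apart from Pcdhb5, single beta isoforms thus cannot rank clone 3 as lowest. Its beta sum (17.2 FPKM) was still the lowest of the iNSC libraries. Pcdhb10 was the beta isoform at which clone 3 (1.11 FPKM) was not the lowest, since pBKSM was at 0.419 FPKM.

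The comparison of iNSC lines with fibroblasts asks which isoforms changed with conversion. Of the 39 isoforms tested, 1 fell and 0 rose in iNSCs, where 9.55% of all genes tested fell and 6.77% rose. The isoform that fell was Pcdhga12, at 0.208 ± 0.142 FPKM in iNSCs (SD, n = 5) against 2.85 FPKM in MEF, with a difference of -1.68 ± 0.20 (SE) on the log2(FPKM + 1) scale (limma, adjusted p = 0.00421). All 5 iNSC libraries were below MEF. Pcdhga12 reached 1 FPKM in MEF alone, so it was tested only through MEF and this order was fixed. Pcdhac2, which was under 0.001 FPKM in MEF, averaged 1.70 ± 2.39 FPKM in iNSCs, and its difference of 1.02 ± 1.11 had an adjusted p of 0.561 in limma. Pcdhgc3 averaged 192 ± 113 FPKM in iNSCs against 99.7 FPKM in MEF, with an adjusted p of 0.568 in limma, and the iNSC libraries (81.9 to 332 FPKM) lay on both sides of MEF.

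The comparison with cortical cells asks which isoforms iNSCs lacked. Of the same 39 isoforms, 1 fell and 0 rose in iNSCs against cNSC, where 0.958% of all genes tested fell and 0.207% rose. This was Pcdhgb5, at 0.0610 ± 0.0428 FPKM in iNSCs (SD, n = 5) against 4.82 FPKM in cNSC, a log2(FPKM + 1) difference of -2.46 ± 0.12 (limma, adjusted p = 0.00118). With both mcBKSM clones left out, an alternative added after seeing the data, the difference was -2.42 with an adjusted p of 0.105, and no gene in the table was called. Pcdhgb1 had a difference of -1.85 ± 0.29 and Pcdhga4 of -1.37 ± 0.22, with adjusted p-values of 0.0607 and 0.0720 in limma. Counted without a test, cNSC lay above all 5 iNSC libraries at 12 of 38 isoforms and below all 5 at none, where 23.4% of all genes lay above and 22.8% below. Of the 12, 10 were among 17 gamma isoforms and 1 among 18 beta isoforms. Pcdhgb1, Pcdhga4, Pcdhgb4 and Pcdhgb5 reached 1 FPKM in cNSC and in no iNSC library, so they entered this count through cNSC and could not lie elsewhere. They were off in MEF as well, so they also entered the limma fit only through cNSC, which had to lie above the iNSC libraries. Over the isoforms that reached 1 FPKM in an iNSC library, cNSC lay above all 5 at 8 of 34, a share near that of all genes (2725 of 12378). The comparisons with MEF and with cNSC share the iNSC libraries. Strain also differed between cNSC and the EYFP iNSC lines, and it is given as unknown for DTA. In both fits the lone MEF and cNSC libraries are assumed to vary like the iNSC lines.

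The DTA line was then set against the other 4 iNSC libraries. It lay above all 4 at 15 of 18 beta isoforms, 7 of 13 gamma isoforms and 23 of 34 isoforms in all, and below all 4 at none, where 29.2% of all genes lay above and 29.6% below. Among them, 6 beta and 4 gamma isoforms reached 1 FPKM in DTA alone of the iNSC libraries and so entered the count through DTA. Over the isoforms that reached 1 FPKM in another iNSC library, DTA lay above all 4 at 9 of 12 beta, 3 of 9 gamma and 13 of 24 isoforms in all, where 27.5% of all genes did so. Pcdhb2 was 7.73 FPKM in DTA (95% Poisson interval 6.94 to 8.59), against 0.892 FPKM in pBKSM (0.588 to 1.30), the highest of the other 4. Pcdhb3 was 3.84 FPKM in DTA (3.37 to 4.36), against 0.785 FPKM in pBKSM (0.540 to 1.10) and at most 0.308 FPKM in the other 3. The same isoforms were 1.66 and 0.944 FPKM in cNSC, so DTA was also above the cortical cells there.

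No isoform reached the threshold in this comparison: of 34 tested in limma 0 were called, against 0.355% of all genes, and 13 had an unadjusted p under 0.05. The log2(FPKM + 1) difference in limma was 2.82 ± 0.43 for Pcdhb2, 2.02 ± 0.30 for Pcdhb9 and 1.99 ± 0.34 for Pcdhb6. Each of them reached 1 FPKM in DTA alone of the iNSC libraries. They were therefore tested through DTA, which had to lie above the other 4. The same held for Pcdhb3, Pcdhb7, Pcdhb8, Pcdhga1, Pcdhga3, Pcdhgb2 and Pcdhgc5 among the 34. Leaving out pBKSM gave 17 isoforms called, all higher in DTA, and 3951 of 12239 genes called in the whole table. The spread here comes from the other 4 iNSC libraries, and DTA is assumed to vary like them. Of 5 astrocyte markers, 1 rose in DTA (Aqp4, adjusted p = 0.0422 in limma), the list summed to 481 FPKM in DTA and 29.5 to 235 FPKM in the other 4 lines, and none was at 0 in DTA. Slc1a3, at 437 FPKM in DTA, held most of that sum, and S100b was 4.31 FPKM in DTA against 61.5 FPKM in pBKSM. The 8 neuron markers summed to 124 FPKM in DTA and 204 to 276 FPKM in the other lines, with none at 0 in DTA. Map2, at 112 FPKM in DTA, held most of the neuron sum. In limma the differences of the 5 astrocyte markers tested were all positive, and those of the 6 neuron markers tested all negative. Their part in the isoform differences was not tested.

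The comparison of pBKSM with the mcBKSM clones sets the polycistronic vector against the monocistronic one for the same factor letters. Since pBKSM is a single library, vector and line cannot be told apart. Of 39 isoforms tested, 7 rose in pBKSM and 0 fell, where 3.74% of all genes tested rose and 2.08% fell. Among gamma isoforms, Pcdhgb7 was 13.9 FPKM in pBKSM against 0.375 and 0.192 FPKM in clones 1 and 3, a log2(FPKM + 1) difference of 3.55 ± 0.16 (limma, adjusted p = 0.0387). Pcdhgb6 was 5.10 FPKM in pBKSM against 0.0316 and 0.0712 FPKM, a difference of 2.54 ± 0.06 (limma, adjusted p = 0.0367). Pcdhga5 rose likewise, with a difference of 1.13 ± 0.03 (limma, adjusted p = 0.0367).

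In the alpha cluster the isoforms that rose in pBKSM were those named above. The difference was 1.76 ± 0.06 for Pcdhac2 and 1.15 ± 0.03 for Pcdha10, each with an adjusted p of 0.0367 in limma. Since both were under 0.001 FPKM or listed at 0 in the clones, their sizes depend on the pseudocount. In the beta cluster, Pcdhb18 was 4.98 FPKM in pBKSM (95% Poisson interval 4.42 to 5.60), against 0.619 FPKM in clone 1 (0.452 to 0.828) and 0.424 FPKM in clone 3 (0.282 to 0.613), a difference of 1.98 ± 0.13 (limma, adjusted p = 0.0471). Pcdhb2 was 0.892 FPKM in pBKSM against 0.0257 and 0 FPKM, a difference of 0.90 ± 0.05 (limma, adjusted p = 0.0453). Pcdhgc3 had a difference of 1.56 ± 0.32, with an adjusted p of 0.107 in limma.

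These p-values rest on 1 residual degree of freedom, the spread between the clones, and pBKSM is assumed to vary like them. At Pcdhac2, Pcdha10 and Pcdhga5 both clones were under 0.001 FPKM or listed at 0, so they showed almost no spread. The SE of these isoforms thus comes mainly from the variance that limma borrows from other genes, not from a measured spread. With a pseudocount of 0.1 the adjusted p was 0.0678 for Pcdhb18, 0.0530 for Pcdhb2 and 0.0600 for Pcdhgb7, so these 3 calls were lost. Of the markers, 3 of 5 astrocyte genes rose and 3 of 8 neuron genes fell in pBKSM. The astrocyte list summed to 235 FPKM in pBKSM, against 32.5 and 29.5 FPKM in clones 1 and 3, where Gfap and S100b were listed at 0 in clone 3. The neuron list summed to 276 FPKM in pBKSM, where Snap25 and Stmn2 were listed at 0, against 204 and 259 FPKM in clones 1 and 3. Map2, at 259 FPKM in pBKSM, held most of that sum, and 7 of the 8 neuron genes were lower in pBKSM, such as Rbfox3 at 1.62 FPKM in pBKSM against 29.7 and 26.0 FPKM in clones 1 and 3. Their part in the isoform differences was not tested. Pou3f4, the gene for the factor that B stands for, was 19.99 FPKM in pBKSM, 24.1 in DTA and 27.2 in cNSC, against 2.26 in pOKSM and 0 in both clones and MEF, and its part in the isoform differences was not tested.

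Genes that act on or beside the clusters were described from lists. Non-clustered protocadherins are single genes elsewhere in the genome with their own promoters. Of 8 tested in iNSC against MEF, 1 fell and 0 rose: Pcdh19, an adhesion molecule tied to N-cadherin, averaged 2.12 ± 0.61 FPKM in iNSCs (SD, n = 5) against 10.3 FPKM in MEF, a difference of -1.88 ± 0.31 (limma, adjusted p = 0.0142). Over all genes 6.77% rose and 9.55% fell there, so 1 of 8 is near the background. In pBKSM against the clones 2 rose and 1 fell, where 3.74% of all genes rose and 2.08% fell. Pcdh11x was 5.14 FPKM in pBKSM and 0 in both clones (adjusted p = 0.0367), Pcdh7 was 9.63 against 0.722 and 0.907 FPKM (adjusted p = 0.0464), and Pcdh18 was 5.33 against 32.5 and 29.9 FPKM (adjusted p = 0.0451), all from limma. The median log2(FPKM + 1) difference of the 8 was 0.02 against MEF and 1.11 between pBKSM and the clones, where the medians of all genes were 0.03 and 0.

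The regulators of the clusters varied less. The list holds the looping factors, DNA methyltransferases and silencers that act on protocadherin promoters, and 21 of its genes were tested. Ctcf, which binds the promoters and enhancers, was 43.0 FPKM in pOKSM, 44.2 in pBKSM, 35.3 in clone 1, 37.3 in clone 3, 44.8 in DTA, 44.1 in cNSC and 41.0 in MEF. In iNSC against MEF, 1 gene fell and 0 rose: Ehmt2, a histone H3 lysine methyltransferase, at 59.2 ± 3.1 FPKM in iNSCs (SD, n = 5) against 99.5 FPKM in MEF (difference -0.74 ± 0.13, limma, adjusted p = 0.0167), which for 21 genes is no more than the 9.55% of all genes that fell. None was called by limma in iNSC against cNSC (0 at an unadjusted p under 0.05), in DTA against the other lines (5) or in pBKSM against the clones (6). Dnmt3b, the methyltransferase that marks clustered protocadherin promoters in the embryo, was 1.58 FPKM in pBKSM, 0.893 in DTA and 4.05 in pOKSM, against 4.58 and 4.48 in clones 1 and 3, 1.14 in cNSC and 1.42 in MEF. Its difference between pBKSM and the clones was -1.10 ± 0.09, with an adjusted p of 0.0545 in limma.

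Partners of the protocadherin proteins include the kinase Ptk2, the sheddase Adam10 and the WAVE complex, which remodels actin. Of 14 tested in iNSC against MEF, 3 rose and 1 fell, where 6.77% of all genes rose and 9.55% fell. Marcks, an actin-binding substrate of protein kinase C, averaged 262 ± 90 FPKM in iNSCs (SD, n = 5) against 31.7 FPKM in MEF (difference 2.95 ± 0.43, limma, adjusted p = 0.00934). The WAVE complex genes Wasf1 and Abi2 rose by 2.47 ± 0.45 and 1.99 ± 0.40, and Abi1 had a difference of -0.88 ± 0.14, with adjusted p-values of 0.0190, 0.0264 and 0.0131 in limma. None of the 14 was called against cNSC, in DTA or between pBKSM and the clones by limma, where 0, 5 and 7 had an unadjusted p under 0.05.

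Genes next to the clusters on chromosome 18 were tested as well. None of 8 tested was called by limma in any of the 4 comparisons, with 2 at an unadjusted p under 0.05 against MEF, 1 against cNSC, 0 for DTA and 1 between pBKSM and the clones. Taf7, a subunit of the general transcription factor TFIID whose gene lies between the beta and gamma clusters, was 7.17 ± 1.43 FPKM in iNSCs (SD, n = 5) against 1.21 FPKM in cNSC and 2.79 FPKM in MEF. All 5 iNSC libraries (5.22 to 9.20 FPKM) were above both, with adjusted p-values of 0.0722 against cNSC and 0.0685 against MEF in limma. Beyond the alpha end of the clusters, Ik, a splicing factor gene, was 75.8 to 92.5 FPKM in the iNSC libraries, against 95.2 FPKM in cNSC and 72.9 FPKM in MEF.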

How the data were processed

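RNA sequencing libraries were made from 7 samples, each from pooled RNA per the labels' protocols. The authors deposited 1 table of FPKM values, made with STAR 2.5.2b, Cufflinks 2.2.1 and Cuffnorm on mm10, per the submitters' processing notes. The authors' method splits reads of shared exons between genes by estimation, with parameters not given in the sources used here.

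Members were chosen by name, and members, lists and tests were chosen with earlier results of these data known. All 58 matched the RefSeq gene table of the same build. Depth was estimated from 469 intronless genes other than the members, as the value at which low FPKM values become whole fragments (transcript length less 175 bases). A share of 96.1% of these 358 low values came out whole (tolerance 0.1), where values placed at random would give 20.0%. The depths and the 175 bases were chosen to make these same values whole, so this contrast is not an independent check. Poisson intervals and floors (3 fragments) cover counting error only.

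The table as log2(FPKM + 1), less genes that stayed under 1 FPKM throughout a fit, was analysed with limma 3.58.1 (limma-trend, R 4.3.3) and Benjamini-Hochberg adjustment over all genes tested, with calls at an adjusted p under 0.05. This scale understates changes of low genes. The fits held 3 classes (4 residual degrees of freedom), DTA against 4 iNSC libraries (3) and 6 label groups (1). Nothing says that the lines were repeats of each other, so p-values measure only the spread between lines or clones. Other pseudocounts, filters, scalings, on levels and left-out libraries were tried. The fits were tested on simulated data, but only for genes averaging 5 FPKM or more and with less spread than the iNSC libraries showed. That test does not cover most isoforms here. Isoforms that reached 1 FPKM were named, the others mainly by number and range, and of each list up to 4 called genes, or up to 2 as values. Ctcf and Ik, and Dnmt3b and Taf7 among lists without a call, are named as values.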

Additional observations from a re-analysis of the deposited data

Results flagged for a closer look

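Within the 5 iNSC libraries, 10 of 42 items (the 39 isoforms on in at least 1 of the 7 libraries and the 3 cluster sums) had a highest library far from the other 4, by Dixon's gap test at its 95% level, where chance flags about 1 in 20 groups. In 8 of them DTA stood apart, at 7.73 FPKM for Pcdhb2, 3.84 for Pcdhb3, 4.67 for Pcdhb6, 3.15 for Pcdhb7, 1.61 for Pcdhb8, 5.12 for Pcdhb9, 6.20 for Pcdhb11 and 2.75 for Pcdhgb2. The 7 beta isoforms among them lie between Pcdhb1 and Pcdhb12 in the cluster. In the other 2 items pOKSM stood apart, at 1.66 FPKM for Pcdha4 and 1.02 FPKM for Pcdhga11. The items are not independent, since they come from the same 5 libraries. In 9 of the 10 the isoform reached 1 FPKM in no other iNSC library, and in 3 (Pcdha4, Pcdhga11 and Pcdhb3) in no other of the 7 libraries, so these entered through the library that stood apart and the chance rate does not apply to them.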

How the results depend on the processing

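No paired analysis was possible because only the mcBKSM label has more than 1 library. Isoforms called in iNSC against MEF (1) were 2 with no filter, 0 with a filter of 5 FPKM and 1 to 2 with each iNSC library left out. In iNSC against cNSC (1) they were 3 with no filter, 0 at 5 FPKM, 3 after quantile normalization, 0 without both clones (added after seeing the data) and 1 to 4 with each library left out (4 without DTA). In DTA against the other lines (0) they were 2 with no filter and 0 to 17 with each library left out (17 without pBKSM). In pBKSM against mcBKSM (7) they were 12 with no filter and 11 with only the 3 BKSM libraries (10 higher, 1 lower), and leaving out a clone left no test. With no filter, adjusted p was 0.0767 for Pcdhb18, 0.0558 for Pcdhb2 and 0.0626 for Pcdhgb7 in that comparison. At an on level of 0.5 FPKM, 31 isoforms were on in pOKSM, 21 in clone 1 and 15 in clone 3, and at 2 FPKM, 9 in pOKSM, 11 in pBKSM, 5 in clone 3 and 21 in cNSC. With each iNSC library left out, the mean sum was 2.09 to 3.90 FPKM for alpha, 29.1 to 45.8 for beta and 172 to 241 for gamma, and the gamma sum without Pcdhgc3, also added after seeing the data, was 18.5 FPKM. Without C-type isoforms, the leading gamma isoform held 20.6% in pOKSM, 50.2% in pBKSM, 45.9% in clone 1, 47.5% in clone 3, 51.5% in DTA, 18.2% in cNSC and 21.1% in MEF. No isoform called in a main fit changed sign in the settings run, and the other isoforms were not checked for this. At 0.5 FPKM, however, pOKSM (31) passed pBKSM (26), and at 2 FPKM DTA (23) passed cNSC (21) and MEF (13) passed pOKSM. Isoforms below about 0.1 FPKM are limited by depth.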
